A study of Mus musculus with 15 samples.

Results

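The transcripts described here are those of 10 chemokine genes of the mouse liver, Ccl2, Ccl3, Ccl4, Ccl5, Ccl9, Cxcl1, Cxcl9, Cxcl10, Cxcl13 and Cxcl16. They were taken by gene symbol from a table of 18131 genes, in which each symbol was found in a single row, and all 10 were followed through 15 liver libraries. By RefSeq on GRCm38.p6, 6 of them (Ccl2, Ccl3, Ccl4, Ccl5, Ccl9 and Cxcl16) lie on chromosome 11 and 4 (Cxcl1, Cxcl9, Cxcl10 and Cxcl13) on chromosome 5. Poly(A) RNA was sequenced from livers of male C57BL/6 mice aged 6 months per the labels. Mice labelled Sirt3-/- were fed high salt (KO HSD, 8% NaCl, 3 libraries) or normal salt (KO NSD, 0.4% NaCl, 3 libraries), and wild-type mice were fed high salt (WT HSD, 3 libraries) or normal salt (WT NSD, 3 libraries). A further 3 wild-type libraries had only a diet in their titles and are called the additional set, with 2 on high salt and 1 on normal salt. The mice were 6 weeks old at the start, and the diet lasted 4 months by the protocol but 8 weeks by the sample characteristics. The Sirt3 allele, the promoter or exons it affects and the number of animals behind a library were not given in the sources used here.

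Chemokines are small secreted proteins that steer leukocytes by binding receptors with several transmembrane segments on the cells they attract. CC and CXC members are named for the spacing of their first cysteines, and most are made on demand by macrophages, endothelial cells, stromal cells and, in liver, by hepatocytes exposed to inflammatory signals. In liver, CCL2 recruits monocytes through CCR2, CXCL1 recruits neutrophils through CXCR2, CXCL9 and CXCL10 recruit activated T cells through CXCR3, CCL3, CCL4 and CCL5 attract macrophages and T cells, CXCL13 attracts B cells through CXCR5 during the formation of lymphoid follicles, and CXCL16 is a membrane-bound ligand of CXCR6 on natural killer T cells.

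Totals of the deposited expected counts ran from 15726897 to 19539406 per library. The hepatocyte transcript Alb stood between 66784 and 114266 CPM (counts scaled by library total and the trimmed mean of M values). Sirt3 itself was present in every library, at 56.7 to 68.9 CPM in KO HSD, 43.6 to 64.4 CPM in KO NSD, 65.5 to 84.1 CPM in WT HSD and 49.8 to 53.3 CPM in WT NSD, so the genotype is called labelled knockout throughout. A pair of labelled knockout libraries on normal salt, KO NSD 1 and KO NSD 3, held 0 to 4 counts of the Y-linked gene Ddx3y, against 381 to 936 in the other 13 libraries, although all animals were labelled male, and they are called the low-Y libraries below. In another 4 libraries, WT HSD 3, WT NSD 3 and both high salt libraries of the additional set, the transcript lengths implied by counts and FPKM were longer at the upper end of the genes (95th percentile 1.049 to 1.062 times the gene's median over libraries, against 1.012 to 1.027 times in the other 11). Fold changes of single genes that use KO NSD livers are given with and without the low-Y libraries. Without both high salt libraries the additional set allows no comparison.

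Levels were compared between genes only as FPKM, fragments scaled by transcript length and library total, which the authors deposited per library. Ccl9, a CC chemokine of myeloid cells, and Cxcl1 held the first and second ranks by mean FPKM in each of the 4 groups of 3, and Ccl3 and Ccl4 the last ranks. In KO HSD livers Cxcl1 averaged 42.0 FPKM, Ccl9 28.9 FPKM and Ccl5 16.7 FPKM, and in KO NSD livers Ccl9 averaged 34.4, Cxcl1 26.3 and Ccl5 22.1 FPKM. In WT HSD livers Ccl9 averaged 24.3 FPKM and lay above Cxcl1 (7.37 FPKM) without overlap of the libraries, whereas in WT NSD livers Cxcl1 averaged 25.6 FPKM and Ccl9 20.5 FPKM. Neighbours in this order mostly overlapped: within KO HSD livers every neighbouring pair did, and within KO NSD livers only Ccl2 lay apart from Ccl3 below it and Ccl3 from Ccl4. Cxcl13 took the fourth rank in KO NSD livers at 8.61 FPKM and the seventh in KO HSD, WT HSD and WT NSD livers, at 1.45, 1.21 and 1.10 FPKM.

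**Figure D1:**
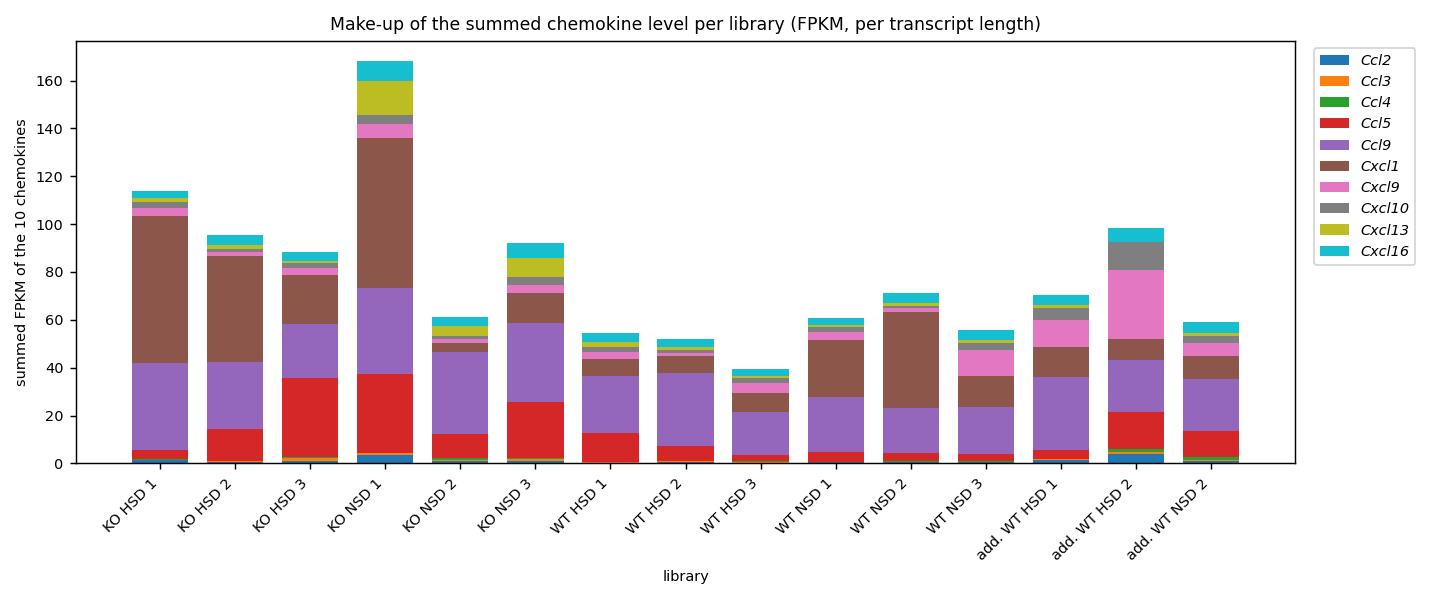
Stacked bars give the summed FPKM of the 10 chemokines in each of the 15 libraries, one colour per gene. The sum ran from 39.3 FPKM in WT HSD 3 to 168 FPKM in KO NSD 1, and Ccl9, Cxcl1 and Ccl5 made up most of it in most libraries.

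The 10 genes differed widely in how much they varied. Ccl9 and Cxcl16 were the steadiest, with a highest library 2.28-fold and 2.88-fold above the lowest in CPM. Cxcl13 ranged 65.8-fold, Cxcl9 18.6-fold, Ccl5 15.9-fold and Cxcl1 15.5-fold. KO NSD 1 was the highest library for 3 of the 10 and among the top 3 libraries for 7 of them. CPM values are scaled by the trimmed mean of M values over all 15 libraries. Only the cutoff of the filter on low counts, 0.524 CPM, is scaled by library total alone.

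**Figure D2:**
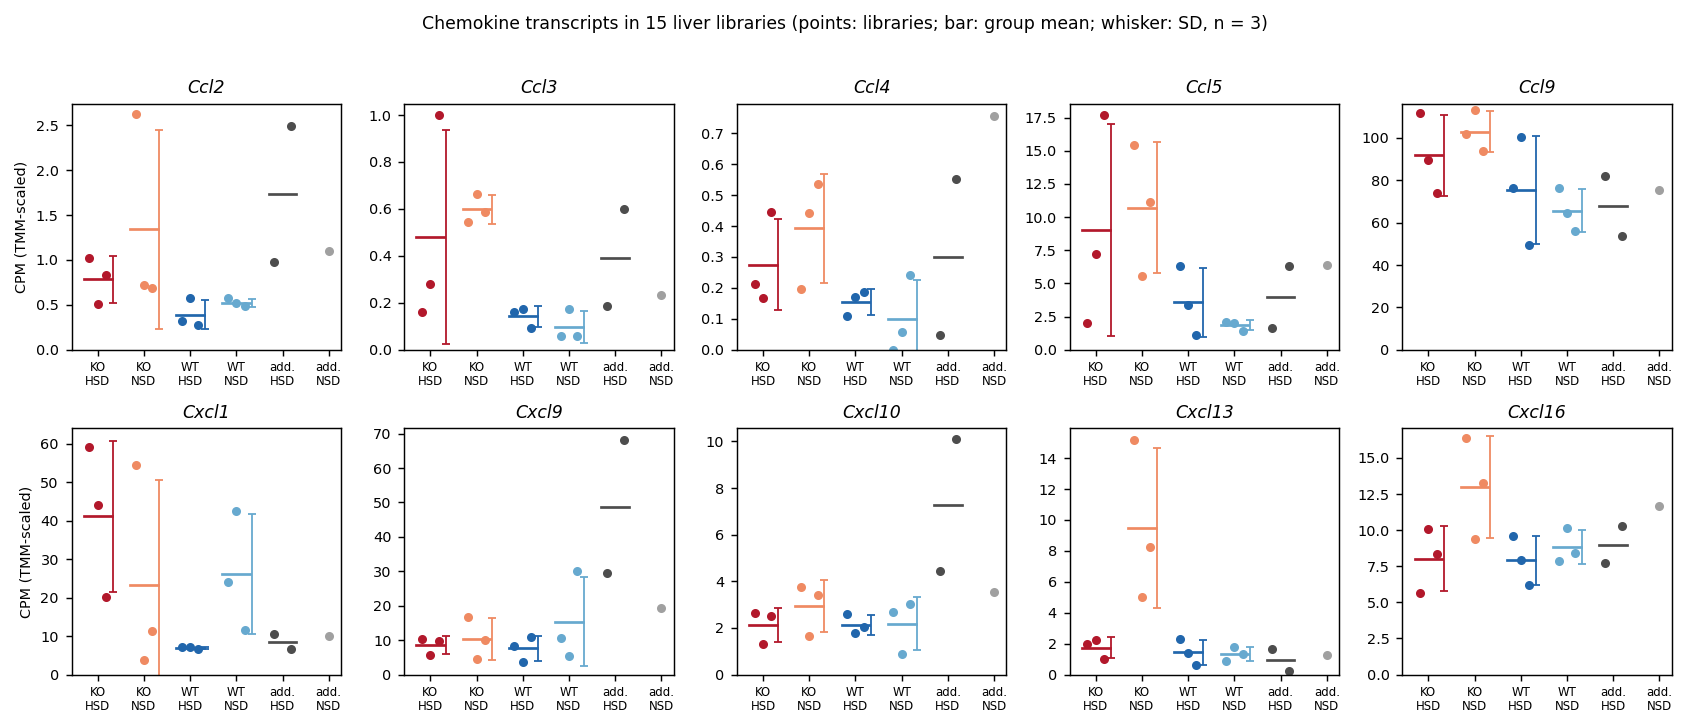
Each panel plots the CPM of a chemokine on a linear axis from 0, with a point per library, a bar at the group mean and a whisker of ± SD where the group has 3 libraries, cut off at 0. Cxcl13 in KO NSD livers (5.04 to 15.2 CPM) lies apart from the other groups, Cxcl9 is highest in an additional high salt library (68.2 CPM), with the other (29.4 CPM) just below WT NSD 3 (30.2 CPM), and Ccl9 and Cxcl16 have narrow ranges.

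The comparison of labelled knockout with wild-type livers on normal salt asks what the genotype label went with on the normal salt diet. Cxcl13, the B cell attractant of lymphoid follicles, was the only one of these chemokines to pass the test there. It stood at 15.2, 5.04 and 8.25 CPM in KO NSD livers, against 0.857, 1.80 and 1.33 CPM in WT NSD livers. All KO NSD libraries lay above all WT NSD libraries, and also above the highest library of any other group, 2.28 CPM in WT HSD 1. The means were 9.49 ± 5.18 CPM in KO NSD and 1.33 ± 0.469 CPM in WT NSD livers (SD, n = 3 each), a log2 fold change of 2.85 ± 0.51 (SE; 7.2-fold, adjusted p = 0.0433 by the quasi-likelihood F test of edgeR with Benjamini-Hochberg adjustment over 13051 genes). Of the 9 chemokines tested 1 was called higher and 0 lower, beside 0.238% of all genes called higher and 0.176% called lower in this comparison.

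Cxcl13 on chromosome 5 lies at chr5:95956939-95961068 (RefSeq, GRCm38.p6, plus strand). Its promoter is shown because it is the gene that passed the test, with the 250 bases before the start of the RefSeq gene (chr5:95956689-95956938, plus strand), 5′ to 3′, and the single motif match in capitals, a TATAAA 46 bases before the start.
Cxcl13: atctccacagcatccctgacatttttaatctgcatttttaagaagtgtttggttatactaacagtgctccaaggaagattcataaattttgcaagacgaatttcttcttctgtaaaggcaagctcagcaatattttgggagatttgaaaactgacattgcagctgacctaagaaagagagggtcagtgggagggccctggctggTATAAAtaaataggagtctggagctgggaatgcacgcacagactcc
The motifs searched on both strands were TATAAA, the NF-kB consensus, the interferon response element core (a pair of GAAA separated by any 2 bases), the gamma-activated site TTCNNNGAA and the AP-1 site TGANTCA. Windows with at least 1 match made up 12.4%, 7.25%, 2.98%, 7.02% and 6.75% of 32851 RefSeq windows of that length, in the order just given. Windows were held for 6 of the 10 chemokines (Cxcl1, Cxcl9, Cxcl10, Cxcl13, Ccl9 and Ccl3). A match describes letters and is not evidence of a bound factor.

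The Cxcl13 call depended on the libraries. With KO NSD 1 left out the log2 fold change was 2.30 (adjusted p = 0.124), with KO NSD 3 left out 2.92 (adjusted p = 0.103), and with both of these low-Y libraries left out 1.91 (adjusted p = 0.474), so that KO NSD 2 at 5.04 CPM then stood alone against the WT NSD libraries. The call was also lost without WT NSD 1 (2.61, adjusted p = 0.164), without WT NSD 2 (3.13, adjusted p = 0.131), without WT NSD 3 (2.82, adjusted p = 0.104) and, by a small margin, without WT HSD 2 (2.84, adjusted p = 0.0626). Without WT HSD 3 and WT NSD 3, the long-length libraries of the 4 groups, it was 2.83 (adjusted p = 0.0711), an alternative chosen after seeing the data. The direction was kept in all 25 alternatives, with adjusted p between 1.01e-05 and 0.474.

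The summed Kupffer cell, neutrophil and monocyte markers were, like Cxcl13, higher in KO NSD than in WT NSD livers without overlap. The lymphocyte and dendritic cell sums overlapped. The 10 Kupffer cell and macrophage markers summed to 291 to 870 CPM in KO NSD livers and 168 to 213 CPM in WT NSD livers, and 10 of 10 had a log2 fold change above 0. The 11 neutrophil markers summed to 89.7 to 259 CPM in KO NSD livers and 11.8 to 26.1 CPM in WT NSD livers. Of these, 10 of 11 had a log2 fold change above 0. The 7 monocyte markers summed to 28.7 to 54.4 CPM in KO NSD livers and 12.2 to 20.6 CPM in WT NSD livers. The 6 B and plasma cell markers summed to 21.8 to 44.4 CPM in KO NSD livers and 9.29 to 21.8 CPM in WT NSD livers. The 11 T and NK cell markers measured summed to 6.81 to 16.4 CPM in KO NSD livers and 5.49 to 11.4 CPM in WT NSD livers. The 6 dendritic cell markers summed to 4.37 to 7.71 CPM in KO NSD livers and 4.58 to 5.89 CPM in WT NSD livers. The groups overlapped for the B and plasma cell, T and NK cell and dendritic cell sums. Per 100 CPM of the Kupffer cell list, Cxcl13 amounted to 1.74, 1.73 and 1.29 CPM in KO NSD livers and to 0.501, 0.844 and 0.790 CPM in WT NSD livers, so that the groups did not overlap on this scale either. Per 100 CPM of the neutrophil list it amounted to 5.87, 5.62 and 6.01 CPM in KO NSD livers and to 3.28, 9.06 and 11.2 CPM in WT NSD livers, and there the groups overlapped. Per 100 CPM of the B and plasma cell list it was 61.0, 23.2 and 18.6 CPM in KO NSD livers. In WT NSD livers it was 3.94, 9.48 and 14.3 CPM, without overlap. Per 100 CPM of the T and NK cell list it was 99.0, 74.0 and 50.4 CPM in KO NSD livers. In WT NSD livers it was 7.50, 18.7 and 24.2 CPM, again without overlap. The part of these cells in the result was not tested, and in bulk tissue more cells of a type and more RNA per cell cannot be told apart. No marker of the Kupffer cell or monocyte lists was at 0 in any library, whereas of the neutrophil markers Camp and Mpo were at 0 in 3 libraries each and Ngp and Ltf in 1 each.

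The inflammatory CC chemokines Ccl3, Ccl4 and Ccl5 had higher values in KO NSD livers, but none of them passed the test. Ccl5 (RANTES), a product of activated T cells and macrophages, stood at 15.4, 5.59 and 11.1 CPM in KO NSD livers, against 2.11, 2.03 and 1.45 CPM in WT NSD livers. The groups did not overlap, and the log2 fold change was 2.53 ± 0.77 (SE, adjusted p = 0.144). DESeq2 and a fit of the compared groups alone did call it (adjusted p = 0.00612 and 0.0252). Without both low-Y libraries the log2 fold change was 1.57. Ccl3 (MIP-1 alpha), an inflammatory product of macrophages, stood at 0.544, 0.664 and 0.586 CPM in KO NSD livers and at 0.0571, 0.174 and 0.0603 CPM in WT NSD livers, with a log2 fold change of 2.54 ± 0.74 (SE, adjusted p = 0.118) and 2.67 without the low-Y libraries. These are 1 to 18 counts per library across the series, and Ccl3 passed the filter on low counts only with the help of the KO NSD libraries (3 of its 4 libraries above 0.524 CPM), so its difference is in part a condition of its being tested. Ccl4 (MIP-1 beta) stood at 0.198, 0.443 and 0.537 CPM in KO NSD livers and at 0, 0.0579 and 0.241 CPM in WT NSD livers. The groups overlapped, and it was not tested because 1 of 12 libraries reached 0.524 CPM.

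Ccl3 and Ccl4 lie at chr11:83647843-83649378 and chr11:83648624-83664683 (GRCm38.p6), and their annotated spans share 755 bases. Their counts were not whole numbers in 4 libraries each, as happens where reads are divided between genes, so their separate values are uncertain. Their sum was 0.742, 1.11 and 1.12 CPM in KO NSD livers and 0.0571, 0.232 and 0.302 CPM in WT NSD livers, and the groups did not overlap.

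Ccl2 (MCP-1), the chief monocyte attractant, stood at 2.62, 0.720 and 0.683 CPM in KO NSD livers and at 0.571, 0.521 and 0.482 CPM in WT NSD livers. Its gene lies at chr11:82035577-82037452. The groups did not overlap, yet a single library, KO NSD 1, was far above the rest. The log2 fold change of 1.36 ± 0.55 (SE, adjusted p = 0.271) dropped to 0.39 without that library and was 0.43 without both low-Y libraries. Its receptor Ccr2 stood at 2.47, 0.996 and 1.76 CPM in KO NSD livers and at 0.116 to 1.21 CPM in WT NSD livers, and these overlapped.

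Ccl9 (MIP-1 gamma), a ligand of CCR1 in the mouse, stood at 102, 113 and 94.0 CPM in KO NSD livers and at 76.2, 64.7 and 56.2 CPM in WT NSD livers. The groups did not overlap, and the difference was small, with a log2 fold change of 0.66 ± 0.24 (SE, adjusted p = 0.213) and 0.77 without the low-Y libraries. Ccl9 counts were not whole in any of the 15 libraries, so some of its reads were shared with other genes. Per 100 CPM of the Kupffer cell list, Ccl9 amounted to 11.7, 38.9 and 14.7 CPM in KO NSD livers and to 44.5, 30.4 and 33.5 CPM in WT NSD livers, and these overlapped. Cxcl16, the membrane-bound ligand of CXCR6, stood at 16.4, 9.36 and 13.3 CPM in KO NSD livers and at 7.89, 10.1 and 8.44 CPM in WT NSD livers. The groups overlapped, the log2 fold change was 0.57 ± 0.26 (SE, adjusted p = 0.347), and without the low-Y libraries KO NSD 1 and KO NSD 3 it was 0.07. Its span (chr11:70454389-70459984) shares 552 bases with Zmynd15, and since their strandedness was not given in the sources used here, reads of overlapping genes cannot be told apart. Cxcr6 overlapped as well, at 0.593, 0.996 and 1.02 CPM in KO NSD livers and at 0.171, 0.348 and 1.08 CPM in WT NSD livers.

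The CXCR2 and CXCR3 ligands showed no such separation on normal salt. Cxcl1 stood at 54.4, 3.82 and 11.2 CPM in KO NSD livers and at 23.9, 42.6 and 11.7 CPM in WT NSD livers. Cxcl9 stood at 16.6, 4.43 and 9.96 CPM in KO NSD livers and at 10.5, 5.50 and 30.2 CPM in WT NSD livers. Cxcl10 stood at 3.76, 1.66 and 3.42 CPM in KO NSD livers and at 2.69, 0.869 and 3.02 CPM in WT NSD livers. All of these overlapped between the groups.

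Over the 9 chemokines tested, the median log2 fold change on normal salt was 0.66, against 0.01 over all genes. An unadjusted p under 0.05 in the higher direction was reached by 6 of 9, Ccl3 among them, beside 8.64% of all genes, and 5 of 9 lay higher without overlap, beside 9.95% of all genes. The 10 were chosen with earlier results of these libraries known, so these shares describe them and are not a test.

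**Figure D3:**
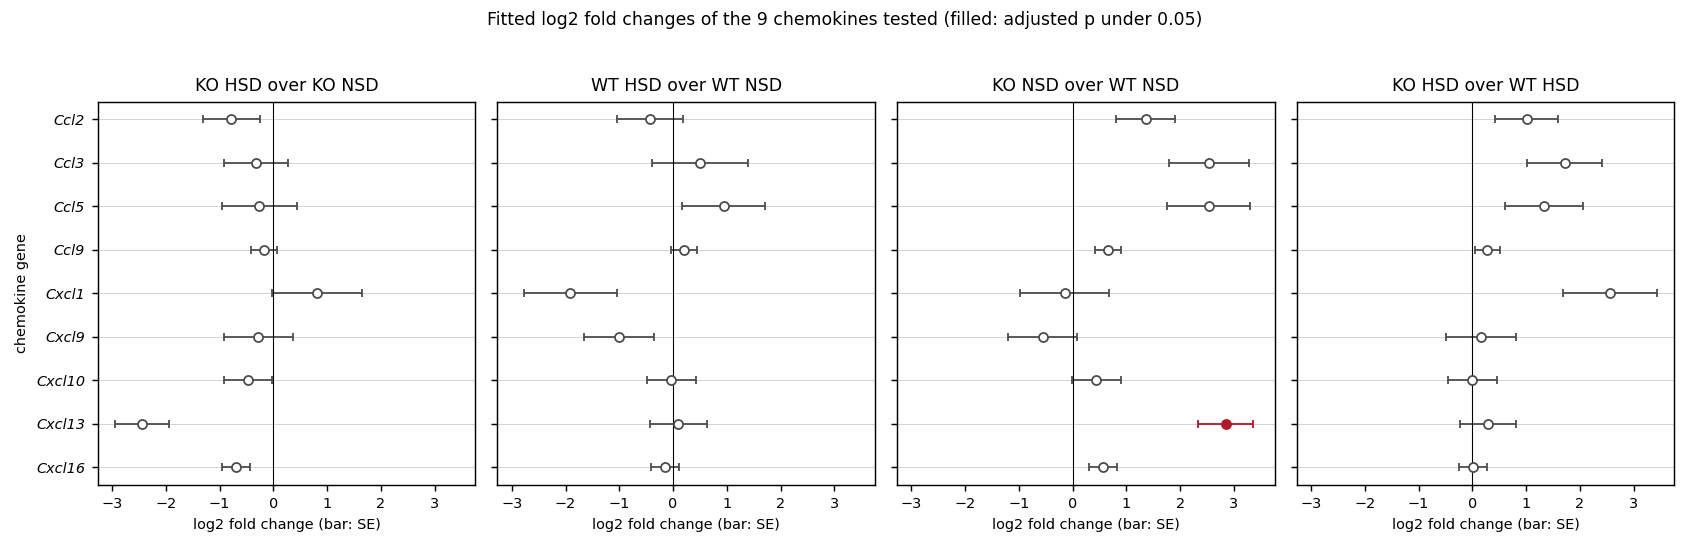
Points are fitted log2 fold changes of the 9 chemokines tested, with bars of ± SE, in a panel per comparison. Only Cxcl13 in KO NSD over WT NSD (2.85 ± 0.51) is filled, the mark of an adjusted p under 0.05.

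Other genes of the chemokine system were taken from lists covering 26 further chemokines in the table, 18 receptors, 10 atypical receptors and processing enzymes, and 22 upstream signals. Tested were 11, 8, 9 and 19 of them. In KO NSD against WT NSD, 0 of 11 other chemokines, 1 of 9 atypical receptors and processing enzymes (Mmp8) and 0 of 19 upstream signals were called higher, and 0 in these lists lower. Mmp8, a neutrophil collagenase that can cleave chemokines, stood at 3.02, 1.44 and 2.29 CPM in KO NSD livers and at 0.0571, 0.174 and 0.0603 CPM in WT NSD livers, a log2 fold change of 4.45 ± 0.83 (SE, adjusted p = 0.0454). It was called in 15 of 25 alternatives and lost its call, among others, when KO NSD 1 (adjusted p = 0.127), KO NSD 3 (0.139), WT HSD 1 (0.0519), WT HSD 2 (0.0626) or any WT NSD library (0.114 to 0.175) was left out. Without both low-Y libraries its log2 fold change was 3.78 (adjusted p = 0.412). Like Ccl3, Mmp8 passed the filter on low counts only with the help of the KO NSD libraries (3 of its 4 libraries above 0.524 CPM), so its difference is in part a condition of its being tested. Mmp8 is itself one of the neutrophil markers. Just short of the threshold were Mmp9, the gelatinase of neutrophils and macrophages (3.86 ± 0.721 CPM in KO NSD and 0.608 ± 0.279 CPM in WT NSD livers, adjusted p = 0.0507), and the cytokine genes Tnf (0.855 ± 0.285 CPM in KO NSD and 0.0979 ± 0.0353 CPM in WT NSD livers, adjusted p = 0.0513) and Ltb (1.61 ± 0.288 CPM in KO NSD and 0.525 ± 0.198 CPM in WT NSD livers, adjusted p = 0.0592), all SD with n = 3 each. Tnf reached 0.524 CPM in the 3 KO NSD libraries alone, so it was tested only because of the group where it is high. Without the low-Y libraries the log2 fold changes were 2.30 for Mmp9 (2.67 with them), 3.17 for Tnf (3.05 with them) and 1.31 for Ltb (1.61 with them), with adjusted p between 0.378 and 0.605. Ccl6, a CC chemokine of myeloid cells, stood at 21.4, 11.8 and 14.7 CPM in KO NSD livers and at 4.23, 5.45 and 3.98 CPM in WT NSD livers (log2 fold change 1.82 ± 0.39 SE, adjusted p = 0.0616, and 1.36 with adjusted p = 0.625 without the low-Y libraries). The eosinophil attractant Ccl24 stood at 3.61, 3.32 and 6.74 CPM in KO NSD livers and at 0.482 to 1.33 CPM in WT NSD livers (2.38 ± 0.54 SE, adjusted p = 0.0701, and 1.90 with adjusted p = 0.613 without the low-Y libraries). In the main test Mmp9, Tnf, Ltb, Ccl6 and Ccl24 were not called. They were called in 12, 10, 6, 10 and 5 of 25 alternatives, in that order. Cxcr3, the receptor of Cxcl9 and Cxcl10, overlapped between the groups, at 1.58, 0.388 and 1.07 CPM in KO NSD livers and 0.286, 0.579 and 0.181 CPM in WT NSD livers. Cxcr5, the receptor of CXCL13, is in the table but did not pass the filter on low counts.

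**Figure D4:**
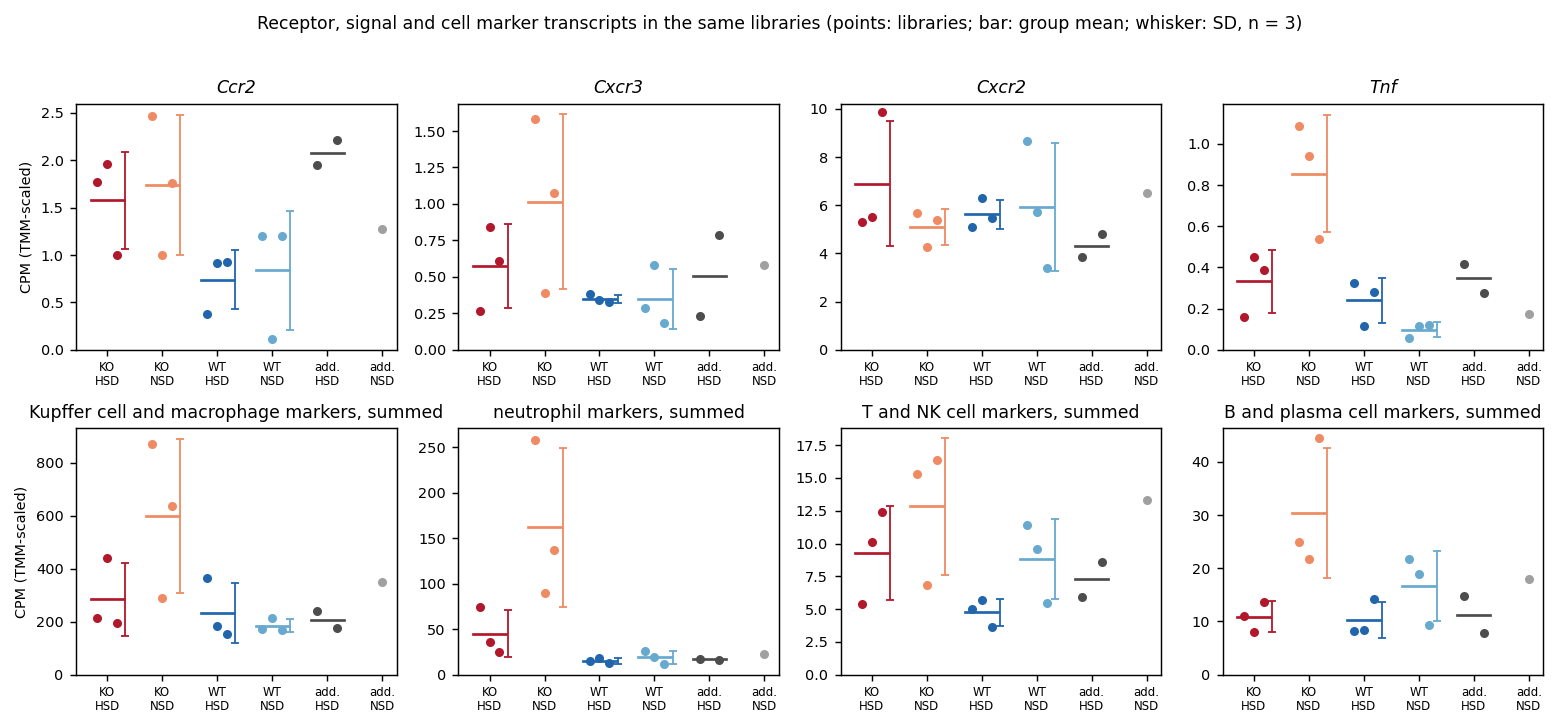
The upper row plots CPM of the receptors Ccr2, Cxcr3 and Cxcr2 and of Tnf, and the lower row the summed CPM of 4 marker lists, with a point per library, a bar at the group mean and a whisker of ± SD (n = 3). The 3 receptors overlap between KO NSD and WT NSD livers, whereas the neutrophil sum is 89.7 to 259 CPM in KO NSD and at most 74.4 CPM elsewhere. Cxcr2 is also one of the markers in the neutrophil sum.

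On high salt, the labelled knockout was set against the wild type on the same diet. None of the 9 chemokines tested was called, in either direction, as was none of 13051 genes (0%), with 340 genes higher and 263 lower at an unadjusted p under 0.05 and 29 genes called by DESeq2. Cxcl1, the neutrophil attractant KC, had the largest fold change among the 9. It stood at 59.2, 44.0 and 20.2 CPM in KO HSD livers and at 7.05, 7.21 and 6.54 CPM in WT HSD livers. The WT HSD libraries lay close together and the KO HSD libraries all lay above them. The means were 41.1 ± 19.6 CPM in KO HSD livers and 6.94 ± 0.350 CPM in WT HSD livers (SD, n = 3 each), a log2 fold change of 2.56 ± 0.88 (SE, adjusted p = 0.951), which kept its sign in 25 alternatives between 2.21 and 2.89. It was the only one of the 9 to lie higher without overlap, beside 4.08% of all genes.

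The promoter of Cxcl1 (chr5:90890995-90891244, GRCm38.p6, plus strand, 250 bases before the gene at chr5:90891245-90893121) is shown because its level separated the 2 genotype labels on high salt. Capitals mark matches of the NF-kB consensus on both strands, which overlap and begin 71 and 70 bases before the start.
Cxcl1: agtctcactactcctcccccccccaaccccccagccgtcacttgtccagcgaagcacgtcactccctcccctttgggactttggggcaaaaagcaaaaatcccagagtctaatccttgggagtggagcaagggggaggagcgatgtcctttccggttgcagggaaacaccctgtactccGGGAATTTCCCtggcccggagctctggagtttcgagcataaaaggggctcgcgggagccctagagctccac
The NF-kB consensus was also found in the windows of Cxcl10 and Ccl9, 3 of the 6 windows held, and in 7.25% of all windows.

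The neutrophil markers summed to 25.3 to 74.4 CPM in KO HSD livers and to 12.5 to 18.3 CPM in WT HSD livers, and 11 of 11 had a log2 fold change above 0. Library by library, the neutrophil sum was 74.4, 35.7 and 25.3 CPM in KO HSD 1, 2 and 3, beside 59.2, 44.0 and 20.2 CPM of Cxcl1. In KO NSD livers, where the neutrophil sum was higher still, Cxcl1 reached 54.4 CPM in a single library and stood at 3.82 and 11.2 CPM in the other two. The part of neutrophils in the Cxcl1 values was not tested. Cxcr2, the receptor of CXCL1 on neutrophils, was at 5.30, 5.50 and 9.89 CPM in KO HSD livers and at 5.10, 6.30 and 5.48 CPM in WT HSD livers, and these overlapped. Cxcr2 is itself one of the neutrophil markers in the sum.

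Ccl5 on high salt stood at 2.03, 7.24 and 17.7 CPM in KO HSD livers and at 6.29, 3.38 and 1.11 CPM in WT HSD livers. The groups overlapped, and the log2 fold change of 1.33 ± 0.73 (SE, adjusted p = 1) was 0.37 without KO HSD 3. The T and NK cell markers summed to 12.4 CPM in KO HSD 3 and to 5.35 and 10.1 CPM in the other KO HSD libraries. Ccl3 stood at 0.161, 0.281 and 1.00 CPM in KO HSD livers and at 0.163, 0.172 and 0.0928 CPM in WT HSD livers, again with KO HSD 3 far above its group (log2 fold change 1.72 ± 0.70 SE, adjusted p = 1). Ccl4 stood at 0.214, 0.168 and 0.444 CPM in KO HSD livers and at 0.108, 0.172 and 0.186 CPM in WT HSD livers. For all of Ccl3, Ccl4 and Ccl5 the highest KO HSD library was KO HSD 3.

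Ccl2 stood at 1.02, 0.505 and 0.833 CPM in KO HSD livers and at 0.325, 0.573 and 0.278 CPM in WT HSD livers. Ccl9 stood at 112, 89.5 and 73.8 CPM in KO HSD livers and at 76.2, 100.4 and 49.5 CPM in WT HSD livers. Cxcl13, so high in KO NSD livers, stood at 1.98, 2.25 and 1.00 CPM in KO HSD livers and at 2.28, 1.37 and 0.650 CPM in WT HSD livers. Cxcl9 stood at 10.3, 5.61 and 9.83 CPM in KO HSD livers and at 8.24, 3.66 and 10.95 CPM in WT HSD livers, and Cxcl10 at 2.62, 1.29 and 2.50 CPM in KO HSD livers and at 2.60, 1.77 and 2.04 CPM in WT HSD livers. Cxcl16 stood at 5.68, 10.1 and 8.33 CPM in KO HSD livers and at 9.60, 7.96 and 6.17 CPM in WT HSD livers. These groups overlapped for every one of the 6. Of the other lists, none of 11 chemokines, 8 receptors, 9 atypical receptors and processing enzymes and 19 upstream signals was called. The gene of smallest p among them was Mmp9, at 1.42 ± 0.928 CPM in KO HSD livers and 0.287 ± 0.130 CPM in WT HSD livers (SD, n = 3 each, adjusted p = 0.857).

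The effect of high salt in labelled knockout livers was read from KO HSD against KO NSD. Cxcl13 was the chemokine with the largest difference. It stood at 1.98, 2.25 and 1.00 CPM in KO HSD livers and at 15.2, 5.04 and 8.25 CPM in KO NSD livers, and the groups did not overlap. The log2 fold change was -2.45 ± 0.50 (SE), with an adjusted p of 0.39, so it was not called, whereas DESeq2 called it (adjusted p = 0.00192). No gene was called in this comparison (0% of 13051), with 333 genes higher and 718 lower at an unadjusted p under 0.05 and 50 called by DESeq2. Of the 9 chemokines tested, 1 lay lower without overlap, beside 5.75% of all genes. This comparison and that of KO NSD with WT NSD share the KO NSD libraries, so the high Cxcl13 values in those 3 libraries enter both. Without the low-Y libraries KO NSD 1 and KO NSD 3 the log2 fold change was -1.51.

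Cxcl16 stood at 5.68, 10.1 and 8.33 CPM in KO HSD livers and at 16.4, 9.36 and 13.3 CPM in KO NSD livers, with overlap (log2 fold change -0.70 ± 0.26 SE, adjusted p = 0.542), and -0.20 without the low-Y libraries. Ccl5 did not separate by diet in the labelled knockout, at 2.03, 7.24 and 17.7 CPM in KO HSD livers and 15.4, 5.59 and 11.1 CPM in KO NSD livers. Over the 9 chemokines the median log2 fold change was -0.32, against a median close to 0 over all genes, and 8 of 9 were below 0. The Kupffer cell and macrophage markers summed to 195 to 442 CPM in KO HSD livers and 291 to 870 CPM in KO NSD livers, and 10 of 10 had a log2 fold change below 0. The B and plasma cell markers summed to 7.97 to 13.7 CPM in KO HSD livers and 21.8 to 44.4 CPM in KO NSD livers. Per 100 CPM of the B and plasma cell list, Cxcl13 amounted to 18.0, 28.2 and 7.29 CPM in KO HSD livers and to 61.0, 23.2 and 18.6 CPM in KO NSD livers, which overlapped. Per 100 CPM of the Kupffer cell list it amounted to 0.924, 0.508 and 0.513 CPM in KO HSD livers and 1.74, 1.73 and 1.29 CPM in KO NSD livers, which did not. The neutrophil markers summed to 25.3 to 74.4 CPM in KO HSD livers and 89.7 to 259 CPM in KO NSD livers, without overlap. Per 100 CPM of the neutrophil list Cxcl13 amounted to 2.66, 6.29 and 3.96 CPM in KO HSD livers. In KO NSD livers it was 5.87, 5.62 and 6.01 CPM, with overlap. Per 100 CPM of the T and NK cell list it was 37, 22.2 and 8.07 CPM in KO HSD livers. In KO NSD livers it was 99, 74 and 50.4 CPM, without overlap. The part of these cells was not tested.

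In wild-type livers, WT HSD was set against WT NSD. None of the 9 chemokines was called, as was none of 13051 genes (0%), with 250 higher and 334 lower at an unadjusted p under 0.05 and 9 called by DESeq2. Cxcl1 had the largest difference, at 7.05, 7.21 and 6.54 CPM in WT HSD livers and 23.9, 42.6 and 11.7 CPM in WT NSD livers. The groups did not overlap, and it was the only one of the 9 to lie lower without overlap, beside 4.86% of all genes. The log2 fold change was -1.91 ± 0.87 (SE, adjusted p = 1) and ranged from -2.26 to -1.36 over 25 alternatives. In the additional set the same diets gave 10.6 and 6.59 CPM in HSD 1 and HSD 2 and 9.95 CPM in NSD 2, within each other's range. Cxcl9 stood at 8.24, 3.66 and 10.95 CPM in WT HSD livers and at 10.5, 5.50 and 30.2 CPM in WT NSD livers. Cxcl13 stood at 2.28, 1.37 and 0.650 CPM in WT HSD livers and at 0.857, 1.80 and 1.33 CPM in WT NSD livers. The median over the 9 was -0.03, against 0.02 over all genes, with 4 above 0 and 5 below.

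The difference between the salt effects of the 2 genotype labels was tested in the same fit. No chemokine of the 9 and no gene of 13051 was called (0%), with 266 genes above 0 and 440 below at an unadjusted p under 0.05 and 10 called by DESeq2. Cxcl1 and Cxcl13 had the smallest p among the 9 and pointed opposite ways. For Cxcl1 the salt effect in labelled knockout livers minus that in wild-type livers was 2.72 ± 1.2 on the log2 scale (SE, adjusted p = 0.904). For Cxcl13 it was -2.56 ± 0.72 (SE, adjusted p = 0.835). Without the low-Y libraries KO NSD 1 and KO NSD 3 these values were 5.36 for Cxcl1 (adjusted p = 0.867) and -1.61 for Cxcl13 (adjusted p = 1), and KO NSD 2 then stood alone for its group. The salt effects of the 2 genotype labels were therefore not shown to differ for any of these genes.

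In the additional wild-type set no chemokine was called, and the largest fitted differences were those of the CXCR3 ligand Cxcl9, higher on high salt, and of Ccl4, lower. Cxcl9, induced by interferon gamma, stood at 29.4 and 68.2 CPM in high salt libraries HSD 1 and HSD 2 of this set and at 19.4 CPM in its normal salt library NSD 2. Cxcl10, induced by interferons and NF-kB, stood at 4.46 and 10.1 CPM in HSD 1 and HSD 2 and at 3.55 CPM in NSD 2. The log2 fold changes were 1.33 ± 1.02 for Cxcl9 (SE, adjusted p = 0.557) and 1.04 ± 0.69 for Cxcl10 (SE, adjusted p = 0.5). These were the 2 of 10 chemokines that lay higher in both high salt libraries, beside 37.5% of all 13864 genes. Ccl4, Ccl5 and Cxcl16 lay lower in both, 3 of 10 beside 38.9% of all genes, with log2 fold changes of -1.31 ± 1.07, -0.68 ± 1.12 and -0.38 ± 0.38 (SE, adjusted p = 0.573, 0.793 and 0.651). The lone normal salt library makes both shares of all genes large. None of the 10 was called, beside 0% of genes called higher and 0.0216% called lower (706 genes higher and 967 lower at an unadjusted p under 0.05, and 30 called by DESeq2). The log2 fold changes of the 10 had a median of -0.18, against 0.01 over all genes. Cxcl13 was lowest of all 15 libraries in HSD 2, at 0.230 CPM, with 1.63 CPM in HSD 1 and 1.28 CPM in NSD 2. Ccl2 stood at 0.976 and 2.49 CPM in HSD 1 and HSD 2 and 1.11 CPM in NSD 2, and Ccl5 at 1.67 and 6.32 CPM in HSD 1 and HSD 2 and 6.40 CPM in NSD 2. Ccl3 stood at 0.186 and 0.599 CPM in HSD 1 and HSD 2 and 0.233 CPM in NSD 2. Ccl4 stood at 0.0465 and 0.553 CPM in HSD 1 and HSD 2 and 0.756 CPM in NSD 2, its highest value in the series. Ccl9 stood at 82.0 and 53.7 CPM in HSD 1 and HSD 2 and 75.2 CPM in NSD 2, and Cxcl16 at 7.71 and 10.3 CPM in HSD 1 and HSD 2 and 11.7 CPM in NSD 2.

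Cxcl9 had a higher median, with overlapping ranges, in the libraries whose implied transcript lengths stood apart. It ranged from 10.95 to 68.2 CPM (median 29.8) in those 4 libraries and from 3.66 to 19.4 CPM (median 9.83) in the other 11. Cxcl10 ranged from 2.04 to 10.1 CPM (median 3.74) in the 4 and from 0.869 to 3.76 CPM (median 2.60) in the 11. Both high salt libraries of the additional set are among the 4 and its normal salt library is not, so diet and this property cannot be told apart there. Within the main wild-type groups WT NSD 3 held 30.2 CPM of Cxcl9, with 10.5 and 5.50 CPM for WT NSD 1 and 2. WT HSD 3 held 10.95 CPM, against 8.24 and 3.66 CPM in WT HSD 1 and 2. Cxcl9 counts were not whole in any of the 15 libraries, and its value per library includes reads divided among genes. The part of the implied lengths in the Cxcl9 values was not tested.

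Cxcl9 and Cxcl10 lie near each other on chromosome 5, at chr5:92321331-92328079 and chr5:92346638-92348889 (GRCm38.p6, both on the minus strand), and the span of Cxcl10 lies within that of Art3, another gene of the table. Their promoters, the 250 bases before each gene's start (chr5:92328080-92328329 and chr5:92348890-92349139, minus strand), are shown together because the 2 transcripts had similar profiles over the libraries. Capitals mark motif matches.
Cxcl9: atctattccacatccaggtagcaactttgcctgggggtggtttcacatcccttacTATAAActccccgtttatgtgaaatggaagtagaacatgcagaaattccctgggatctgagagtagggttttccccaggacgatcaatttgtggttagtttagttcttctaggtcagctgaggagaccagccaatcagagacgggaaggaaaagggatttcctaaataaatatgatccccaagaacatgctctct
Cxcl10: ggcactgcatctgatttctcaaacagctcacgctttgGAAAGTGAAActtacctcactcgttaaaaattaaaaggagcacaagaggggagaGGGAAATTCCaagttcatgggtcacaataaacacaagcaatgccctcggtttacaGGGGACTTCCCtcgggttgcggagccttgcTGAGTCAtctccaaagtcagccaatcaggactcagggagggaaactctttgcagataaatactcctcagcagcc
The Cxcl10 window held the interferon response element core beginning 213 bases before the start, NF-kB consensus matches beginning 159 and 104 bases before it (the second overlapped by further matches on both strands at 103) and an AP-1 site beginning 74 bases before it. The Cxcl9 window held a TATAAA beginning 195 bases before the start and no match of the other motifs. The gamma-activated site TTCNNNGAA was in 0 of the 6 windows held.

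Likeness of profile was measured as the mean absolute difference between log2 CPM values, each centred on its own mean, over the 15 libraries, so that a smaller value means a more similar profile. Among the 10 chemokines the closest pairs were Ccl9 with Cxcl16 (0.38) and Cxcl9 with Cxcl10 (0.46), and the farthest was Cxcl9 with Cxcl13 (1.64). Among all other genes tested, the nearest to Cxcl13 were Fpr2 (0.49), a formyl peptide receptor of phagocytes, and Siglece (0.50), a sialic acid binding receptor of myeloid cells. Nearest to Ccl5 were Hcst (0.50) and Tyrobp (0.52), which code for signalling adaptors of natural killer and myeloid cells. Nearest to Cxcl9 were Gbp2 (0.47) and Gbp4 (0.49), and nearest to Cxcl10 were Gbp9 (0.23) and Gbp4 (0.33), all interferon-induced guanylate-binding proteins. Nearest to Ccl2 were the lipopeptide receptor Tlr2 (0.33) and the cytokine receptor Il21r (0.35), and to Ccl3 the T cell receptor of the TNF family Cd27 (0.35) and the leukocyte kinase subunit Pik3r5 (0.38). Nearest to Ccl4 were the lymphocyte receptors Ccr7 and Cd3d (0.39 each). The nearest to Cxcl1 were Il31ra (0.63) and Khdc3 (0.65). Ccl9 and Cxcl16, which varied little, lay near Coa6 (0.14) and Rhbdd2 (0.15) and near Emilin1 and Marcksl1 (0.13 each). These genes share the libraries, their depth and their cell makeup with the chemokines, and the values are descriptions.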

How the data were processed

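Expected counts of the 15 libraries were deposited in a single table, and FPKM values in a file per library. Bowtie2 2.2.5, RSEM 1.2.8 and the build mm10 are named per the submitters' processing notes, while annotation and strandedness were not given in the sources used here. Reads that fit several genes are divided among them by RSEM. Of 18131 gene IDs, 18009 matched RefSeq on GRCm38.p6, the assembly of mm10, and 0 sample columns were left unmapped.

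Expected counts were rounded to whole numbers and tested with edgeR 4.0.16 in R 4.3.3 (TMM scaling, the filterByExpr filter, a quasi-likelihood F test with robust fitting, 4 group means over 12 libraries, Benjamini-Hochberg adjustment over 13051 genes, threshold 0.05). The biological coefficient of variation was 0.272. For the additional set, a fit of 15 libraries, 6 group means and 13864 genes was used, where the lone NSD library is taken to vary as other groups do. The fit was checked on simulated counts. No label says that the libraries of a group are from separate animals, so p-values measure only a spread that may be technical. The smallest p of an exact permutation test of 3 against 3 libraries is 0.1.

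Alternatives were DESeq2 1.42.0, limma-voom (limma 3.58.1), other scalings, no filter, other sets of libraries, a replicate block, each library left out, and limma on log2(FPKM + 0.1) or log2(FPKM + 1). Same-numbered libraries deviated together in the wild-type salt comparison (correlations 0.189, 0.108 and 0.483 for numbers 1, 2 and 3), a pairing that comes from the titles' numbers only. The libraries of number 3, WT HSD 3 and WT NSD 3, are also those with long implied transcript lengths. A shared number and this property cannot be told apart there.

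The 10 chemokines and all gene lists were chosen with earlier results of these data known. Named from the other lists were genes past the threshold and, per list and comparison, up to 3 of the smallest p, of which those described were chosen after their values were seen. Likeness used log2 CPM with a prior count of 2. Some results are not reported here.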

Additional observations from a re-analysis of the deposited data

How the results depend on the processing

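Of the chemokines called in KO NSD against WT NSD (1), DESeq2 gave 2, the compared groups alone 2, limma-voom 0, all 15 libraries in the fit 0, both low-Y libraries left out 0, and WT HSD 3 with WT NSD 3 left out (chosen after seeing the data) 0; leaving out each library gave 0 to 1. In KO HSD against KO NSD, DESeq2 gave 1 and the main test 0. Of the other recomputed counts of called chemokines 120 did not change. Signs were followed only for fold changes with a small unadjusted p in the main test, and none of these reversed. Fold changes with a larger p, those near 0 among them, were not followed. The replicate block changed no count of called chemokines (Cxcl13 2.76 in KO NSD against WT NSD); outside the wild-type salt comparison same-numbered libraries did not all deviate together (correlations -0.236 to 0.156), so there they share only a number.

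Over all genes, the 54 called in KO NSD against WT NSD became 661 by DESeq2, 27 by limma-voom, 106 with 15 libraries, 175 with the compared groups alone, 98 with the block, 97 and 107 on FPKM with pseudocounts 0.1 and 1, 0 without the low-Y libraries, and 5 (without WT NSD 2) to 420 (without KO NSD 2) with each library left out. Where 0 genes were called, alternatives gave up to 50 (KO HSD against KO NSD), 30 (WT HSD against WT NSD), 29 (KO HSD against WT HSD) and 10 (difference of salt effects), and the 3 of the additional set became 1 to 30. The causes were not tested. Fold changes of the lowest genes were smaller with the pseudocount of 1 by its construction (Mmp8 0.89 and Ccl3 0.66 in KO NSD against WT NSD). Depth limits Ccl3 and Ccl4, at 1 to 18 and 0 to 13 counts per library.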

Other observations

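Among upstream signals, 3 transcripts of the smallest p in the additional wild-type set are given here, none of which passed the main test. Irf1, an interferon-induced transcription factor, stood at 67.2 and 30.5 CPM in high salt libraries HSD 1 and HSD 2 and at 13.6 CPM in normal salt library NSD 2 (log2 fold change 1.84 ± 0.38 SE, adjusted p = 0.321). Irf1 was called in 3 of 9 alternatives, DESeq2 and limma on log2(FPKM + 0.1) with no filter among them. Without HSD 2 the log2 fold change of Irf1 was 2.30 and without HSD 1 it was 1.16. Each of these sets a single library against a single library, with the spread taken from other groups. NSD 2 held the lowest Irf1 value of the 15 libraries, every other being at 27.9 CPM or above, so the difference leans on it. Nfkbiz, an inducible co-regulator of NF-kB, stood at 16.4 and 16.0 CPM in HSD 1 and HSD 2 and 5.06 CPM in NSD 2 (1.68 ± 0.56 SE, adjusted p = 0.412). Ltb stood at 0.325 and 0.645 CPM in HSD 1 and HSD 2 and 1.46 CPM in NSD 2 (-1.57 ± 0.51 SE, adjusted p = 0.412). In the main wild-type groups Irf1 stood at 34.0, 33.1 and 28.4 CPM in WT HSD livers and at 32.6, 27.9 and 31.5 CPM in WT NSD livers, with overlap.

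Cxcl12, a constitutive chemokine of stromal and endothelial cells that holds CXCR4-bearing cells in place, had overlapping values in the 4 groups. It stood at 304, 311 and 288 CPM in KO HSD livers, 308 (KO NSD 1), 350 (KO NSD 2) and 381 (KO NSD 3) CPM in KO NSD livers, 272, 323 and 344 CPM in WT HSD livers and 223, 320 and 293 CPM in WT NSD livers.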
